A study of Homo sapiens with 6 samples.

Results

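The host genes of small nucleolar RNAs (snoRNAs) were compared between Jurkat cells with a hairpin against SATB1 and Jurkat cells with a control hairpin. The members are the rows of the count tables whose GENCODE 29 symbol begins with SNHG and a digit, together with GAS5, ZFAS1, EPB41L4A-AS1 and DANCR. This rule gave 29 of 58735 gene rows, with 28 symbols, since SNHG28 stands for 2 gene identifiers. The rule used names and no measured value, but the members and the gene lists below were chosen with earlier results of these data known.

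Jurkat is an established human T cell leukaemia line. The cells were infected with a lentiviral vector that carried either shSATB1, a short hairpin RNA against SATB1, or shCtrl, a control hairpin, and each group held 3 RNA-seq libraries of total RNA. The SATB1 protein binds AT-rich DNA and is known for shaping chromatin in T lineage cells. What the hairpins' sequence was, and how long after infection RNA was taken, is not given in the sources used here. The labels do not say whether the libraries of a group came from different cultures, so the p-values reflect library-to-library spread, possibly technical.

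A snoRNA guides a protein complex to a target RNA by base pairing. Box C/D snoRNAs guide methylation of the ribose, box H/ACA snoRNAs guide pseudouridylation, and small Cajal body RNAs (scaRNAs) do the same to the RNAs of the spliceosome. In human cells most of these RNAs lie in introns and are cut out of the spliced intron of a host gene, so 1 transcription unit gives both a spliced RNA and its guest. Many hosts encode ribosomal proteins or other proteins of the translation machinery. Most SNHG genes, GAS5 and ZFAS1 give a spliced RNA with no long open reading frame, which in several cases is degraded by nonsense-mediated decay when it is translated. The SNHG28 row tested here is an exception, typed as protein-coding in GENCODE 29. Several hosts belong to the genes whose transcripts begin with a pyrimidine tract, as those of the ribosomal proteins do.

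The guests of 4 of the hosts with the largest falls are printed because they tie each spliced RNA measured here to a guide RNA of known class. Sequences are from the GENCODE 29 transcripts (hg38), 5′ to 3′, and capitals mark the ACA box near the 3′ end of box H/ACA RNAs and the TGATGA and CTGA boxes of the box C/D RNA. SNORA73A (chr1:28507366-28507571, plus strand) and SNORA73B (chr1:28508559-28508762, plus strand) lie in SNHG3 and act in the processing of small-subunit ribosomal RNA. SNORA26 (chr4:52713249-52713370, plus strand) lies in DANCR, SNORA24 (chr4:118279190-118279320, plus strand) in SNHG8, and SNORD60 (chr16:2155023-2155105, minus strand) in SNHG19.
SNORA73A: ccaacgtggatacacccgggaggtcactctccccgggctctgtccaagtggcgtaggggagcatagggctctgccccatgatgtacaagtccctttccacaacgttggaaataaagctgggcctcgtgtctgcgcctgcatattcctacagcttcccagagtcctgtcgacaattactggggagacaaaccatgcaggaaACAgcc
SNORA73B: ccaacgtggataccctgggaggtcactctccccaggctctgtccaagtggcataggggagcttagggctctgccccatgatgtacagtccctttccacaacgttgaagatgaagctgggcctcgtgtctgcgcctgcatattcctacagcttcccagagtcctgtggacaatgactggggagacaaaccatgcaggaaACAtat
SNORA26: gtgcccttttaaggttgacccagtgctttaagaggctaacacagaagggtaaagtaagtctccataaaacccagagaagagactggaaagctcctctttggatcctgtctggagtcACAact
SNORA24: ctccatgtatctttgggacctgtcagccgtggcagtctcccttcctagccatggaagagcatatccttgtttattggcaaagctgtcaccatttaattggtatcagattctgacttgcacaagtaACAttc
SNORD60: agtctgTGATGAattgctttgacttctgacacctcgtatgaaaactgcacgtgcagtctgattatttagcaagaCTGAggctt

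SATB1 itself stood at 102, 100.2 and 104 CPM in shSATB1 1, 2 and 3, against 279, 259 and 259 CPM in shCtrl 1, 2 and 3. CPM are read counts of a gene divided by the TMM-adjusted number of reads in the library, on the usual scale of that unit. Its log2 fold change of shSATB1 over shCtrl was -1.38 with a standard error (SE) of 0.0611 (adjusted p = 1.11e-08, from edgeR's quasi-likelihood test with Benjamini-Hochberg adjustment over all tested genes). Reads in genes numbered between 26626539 and 28143385 in shSATB1 and between 27737353 and 28913623 in shCtrl. At these depths 3 reads are worth 0.103 to 0.111 CPM (counting error alone). The T cell genes CD3E and LCK were present in both groups, at 463 and 781 CPM in shSATB1 and at 484 and 877 CPM in shCtrl. The other T cell markers looked up are not given here. Of the 14 markers of B, myeloid, erythroid and epithelial cells, CD79A was read at 50.4 CPM in shSATB1 and 60.5 CPM in shCtrl, EPCAM had no read, and the other 12 averaged under 1 CPM in each group. Reads in no annotated exon made up 11.4% ± 0.436 of reads in shSATB1 and 9.1% ± 1.23 in shCtrl (SD, n = 3 each), with no overlap between the groups. The lowest share, 7.77%, was in shCtrl 2.

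Most of the host genes that could be tested were lower in shSATB1, by modest amounts. Of 29 rows, 24 had enough reads to be tested, and 15 of these fell (62.5%), 1 rose (4.17%) and 8 did not pass an adjusted p of 0.05. Over all 17520 tested genes, 16.6% fell and 14.3% rose. The median log2 fold change was -0.33 over the tested members and 0.01 over all tested genes, and 22 of the 24 values were below 0. The changes that passed the test downward were between 1.21-fold and 1.63-fold, with a median of 1.41-fold, and none of the 15 reached 2-fold. In bulk RNA, fewer cells that express a gene and less RNA per cell cannot be told apart. With the share of reads in no exon as a covariate, 4 of the 15 falls passed the test, and when tested for a change beyond 1.2-fold 6 did. Of all tested genes, 7.2% fell with that covariate and 3.98% beyond 1.2-fold.

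The groups were also compared library by library, without a model. In 16 of the 24 tested members every shSATB1 library lay below every shCtrl library, in 1 every shSATB1 library lay above, and in 7 the groups overlapped. Over all tested genes, 23.4% had every shSATB1 library below. Summed over the tested members other than SNHG14, the level was 857, 870 and 923 CPM in shSATB1 from the lowest library to the highest, against 1028, 1099 and 1222 CPM in shCtrl. With SNHG14, the member that rose, the sum lay between 1014.5 and 1072.8 CPM in shSATB1 and between 1162.6 and 1329.4 CPM in shCtrl. Either way the summed level of the groups did not overlap. The sum over all tested genes did not overlap either, so this trait is not particular to the members. That sum lay between 968049.1 and 973308.3 CPM in shSATB1 and between 1019036.6 and 1050458.0 CPM in shCtrl. Within groups, shSATB1 2 was the highest library in 14 of the 24 tested members and shCtrl 2 was the highest in 20.

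**Figure D1:**
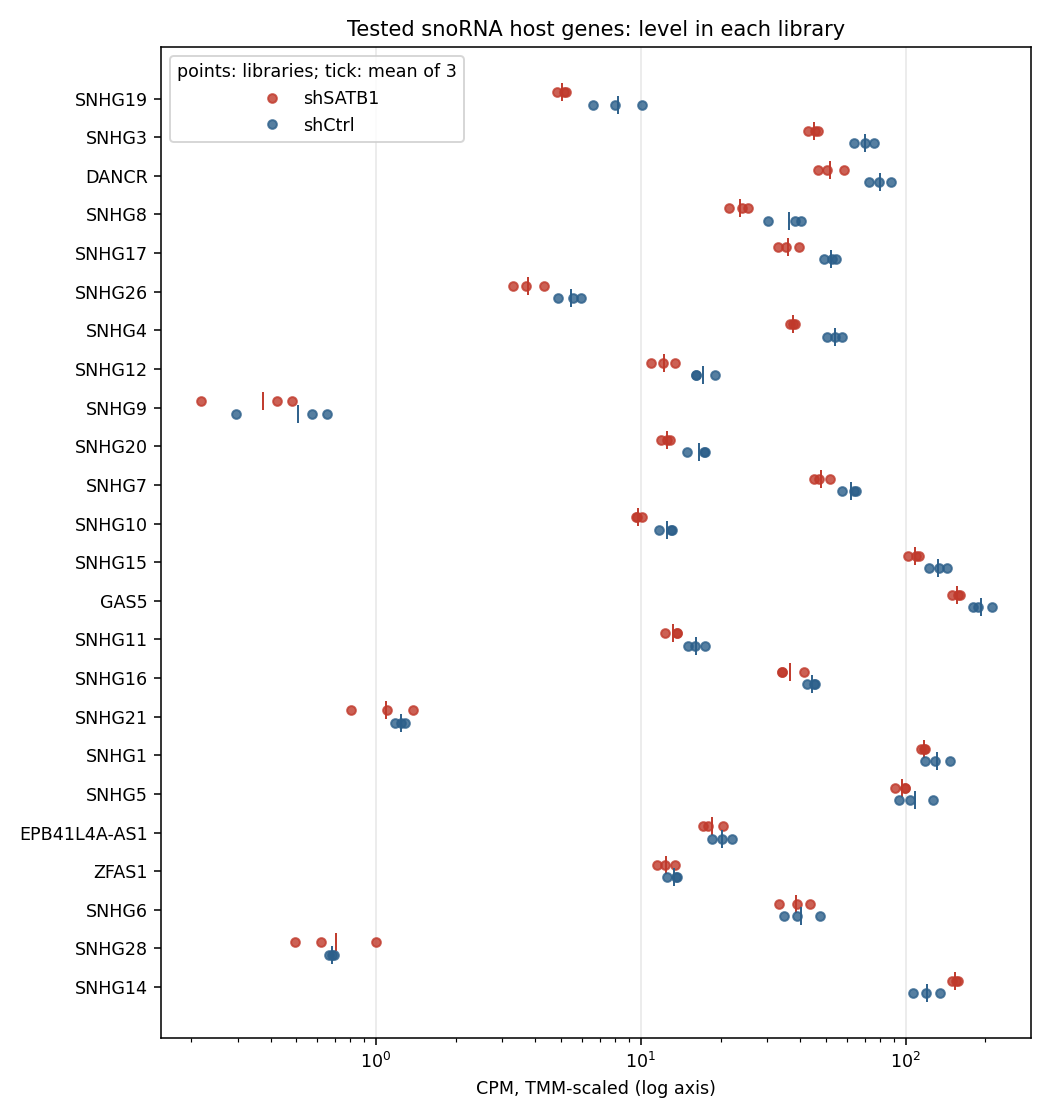
Level of each tested host gene in every library, as CPM on a log axis, a point per library and a tick at the mean of 3, with shSATB1 drawn just above shCtrl for each gene. SNHG3, DANCR, SNHG8, SNHG17 and SNHG4 show no overlap between the groups, SNHG14 is higher in all 3 shSATB1 libraries, and SNHG6 and ZFAS1 overlap.

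SNHG3, the host of SNORA73A and SNORA73B printed above, had the smallest adjusted p of the members. It stood at 42.6, 46.5 and 45.6 CPM in shSATB1 1, 2 and 3, against 63.6, 76.2 and 70 CPM in shCtrl 1, 2 and 3. The log2 fold change was -0.64 (SE 0.0753, adjusted p = 4.65e-05), and the highest shSATB1 library lay well below the lowest shCtrl library. The gene lies on chromosome 1 (28505980 to 28510892, plus strand, hg38), within the span of RCC1.

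DANCR, a noncoding RNA first described as holding epidermal progenitors undifferentiated, had 46.8, 58.4 and 50.3 CPM in shSATB1 against 72.7, 87.9 and 79.6 CPM in shCtrl, a log2 fold change of -0.63 (SE 0.0888, adjusted p = 0.000182). In both groups replicate 2 was the highest, and the groups did not overlap. DANCR lies on chromosome 4 (52712404 to 52720351, plus strand).

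SNHG17, which holds the 4 SNORA71 copies SNORA71A to SNORA71D, had 35.3, 39.5 and 32.9 CPM in shSATB1 against 49.3, 54.7 and 52.9 CPM in shCtrl, a log2 fold change of -0.54 (SE 0.0787, adjusted p = 0.000214). SNHG4, a host of box H/ACA RNAs, had 38.3, 37.5 and 36.5 CPM in shSATB1 against 54.1, 57.4 and 50.5 CPM in shCtrl, with a log2 fold change of -0.53 (SE 0.0694, adjusted p = 0.000104). The groups of both genes were apart in all libraries. SNHG3, DANCR, SNHG17 and SNHG4 are the 4 members whose fall passed the test in all 17 alternative settings. With the share of reads in no exon as a covariate their log2 fold changes were -0.39, -0.31, -0.36 and -0.43, with adjusted p of 0.00395, 0.0299, 0.0219 and 0.00327, in that order.

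SNHG19 had the largest fall of the members. Its CPM were among the lower of the tested members, but with 342 exon bases it was rank 8 per exon length in both groups. It stood at 5.21, 5.12 and 4.83 CPM in shSATB1 against 6.57, 10.1 and 7.98 CPM in shCtrl. Its log2 fold change was -0.70 (SE 0.151, adjusted p = 0.00327), and the 3 shCtrl libraries spread more widely than the shSATB1 libraries. SNHG8, host of SNORA24, had 21.6, 25.4 and 24.1 CPM in shSATB1 against 30.2, 40.2 and 38.3 CPM in shCtrl, with a log2 fold change of -0.61 (SE 0.103, adjusted p = 0.000667). With the share of reads in no exon as a covariate the log2 fold changes were -0.15 for SNHG19 (adjusted p = 0.731) and -0.24 for SNHG8 (adjusted p = 0.238).

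GAS5 was the member with the most reads per exon length in both groups. It is named after its accumulation in growth-arrested cells, and its spliced RNA is a known target of nonsense-mediated decay. GAS5 had 158, 160.3 and 150.2 CPM in shSATB1 against 179, 211 and 187 CPM in shCtrl, with no overlap. The log2 fold change was -0.30 (SE 0.0698, adjusted p = 0.00526). SNHG15, host of SNORA9, changed by a similar amount, with 109, 112 and 102 CPM in shSATB1 against 123, 143 and 134 CPM in shCtrl and a log2 fold change of -0.30 (SE 0.0697, adjusted p = 0.00495). With the covariate the log2 fold changes were -0.07 for GAS5 and -0.10 for SNHG15, with adjusted p of 0.635 and 0.531.

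SNHG12, SNHG7, SNHG20, SNHG10, SNHG26, SNHG11 and SNHG16 also fell. SNHG12, a host of both classes of snoRNA, averaged 12.2 ± 1.31 CPM in shSATB1 and 17.2 ± 1.62 CPM in shCtrl (SD, n = 3 each, as for all means below), with a log2 fold change of -0.49 (adjusted p = 0.00292). SNHG7, which holds SNORA17A and SNORA17B, averaged 47.9 ± 3.39 CPM in shSATB1 and 62.1 ± 3.95 CPM in shCtrl, with a log2 fold change of -0.38 (adjusted p = 0.00182). The log2 fold changes of SNHG20 and SNHG10, which hold a scaRNA each, were -0.41 (adjusted p = 0.00484) and -0.36 (adjusted p = 0.0109). SNHG26, host of SNORD93, had 4.3, 3.28 and 3.69 CPM in shSATB1 against 5.56, 5.96 and 4.87 CPM in shCtrl and a log2 fold change of -0.54 (SE 0.15, adjusted p = 0.0139). SNHG11 and SNHG16 had the smallest falls, with log2 fold changes of -0.29 (adjusted p = 0.0296) and -0.27 (adjusted p = 0.0222).

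The calls of SNHG26, SNHG10, SNHG11 and SNHG16 did not hold with each library left out. SNHG10 had an adjusted p of 0.0556 without shCtrl 3. SNHG26 had adjusted p of 0.0659 without shSATB1 2 and 0.056 without shSATB1 3. SNHG16 had an adjusted p of 0.116 without shSATB1 1, and likewise 0.116 without shSATB1 3. SNHG11 passed the test without shCtrl 1 and in no other such fit, with adjusted p between 0.0564 without shSATB1 2 and 0.137 without shSATB1 1, and with 0.0782 without shCtrl 2, 0.0804 without shCtrl 3 and 0.0629 without shSATB1 3. The other 11 of the 15 falls passed the test with each library left out.

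**Figure D2:**
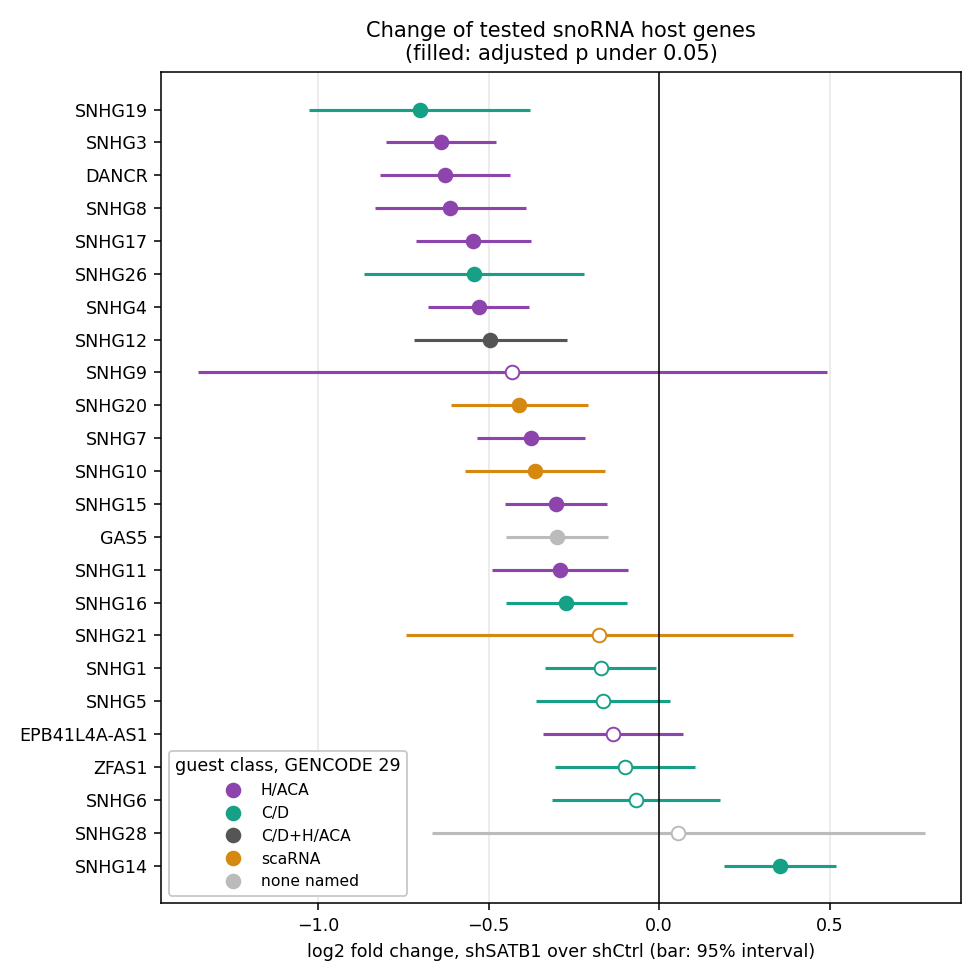
Log2 fold change of shSATB1 over shCtrl for the 24 tested host genes, with 95% confidence intervals as bars, filled points where the adjusted p was under 0.05, and colour for the class of guest RNA. The values run between -0.70 for SNHG19 and 0.35 for SNHG14, and 22 of 24 are below 0.

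SNHG14 was the 1 member that rose. This gene spans more than any other member, on chromosome 15 (24978583 to 25419462, plus strand), is known to be expressed from the paternal copy in the Prader-Willi and Angelman region, holds the SNORD115 and SNORD116 clusters, and runs antisense to UBE3A at its far end. It had 157, 149.7 and 155 CPM in shSATB1 against 135, 107 and 119.7 CPM in shCtrl, and the groups did not overlap. The log2 fold change was 0.35 (SE 0.0767, adjusted p = 0.00339), a 1.28-fold rise. SNHG14 has 43324 bases of merged exons, against a median of 3488 over the tested members and 4122 over all tested genes. With a length offset, which removes the trend of fold change with exon length, its log2 fold change was 0.04 (adjusted p = 0.666), and with the share of reads in no exon as a covariate it was 0.07 (adjusted p = 0.67).

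Of the 8 tested members that did not pass the test, 7 had log2 fold changes between -0.43 and -0.07 and SNHG28 had 0.06. SNHG1, which holds SNORD22 and SNORD25 to SNORD31 in the RefSeq annotation, had 114, 118 and 117 CPM in shSATB1 against 118, 147 and 129 CPM in shCtrl. Its log2 fold change was -0.17, with an interval of -0.33 to -0.01 (adjusted p = 0.103), and its highest shSATB1 and lowest shCtrl libraries were level after rounding. SNHG5, in which RefSeq places SNORD50A and SNORD50B, had 90.8, 99.2 and 99.8 CPM in shSATB1 against 94.3, 127 and 104 CPM in shCtrl, with a log2 fold change of -0.16 (interval -0.36 to 0.03, adjusted p = 0.194). Both passed the test without shCtrl 1, with adjusted p of 0.00468 for SNHG1 and 0.00635 for SNHG5.

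ZFAS1, which lies antisense to ZNFX1 and holds the SNORD12 family, had 12.3, 13.4 and 11.5 CPM in shSATB1 against 13.6, 12.5 and 13.7 CPM in shCtrl, a log2 fold change of -0.10 (interval -0.30 to 0.11, adjusted p = 0.465). SNHG6 had 33.2, 38.7 and 43.4 CPM in shSATB1 against 34.6, 47.6 and 38.8 CPM in shCtrl, with a log2 fold change of -0.07 (interval -0.31 to 0.18, adjusted p = 0.689). The groups overlapped in both. EPB41L4A-AS1, host of SNORA13, had a log2 fold change of -0.14 (interval -0.34 to 0.07, adjusted p = 0.31). For ZFAS1, SNHG6 and EPB41L4A-AS1, 46.9%, 36.4% and 49.6% of the exon bases are shared with exons of other genes, and how the counting dealt with strand is not given in the sources used here. SNHG9, SNHG21 and SNHG28 averaged 0.375, 1.09 and 0.704 CPM in shSATB1 and 0.508, 1.24 and 0.679 CPM in shCtrl, and at this depth their intervals spanned -1.35 to 0.49, -0.74 to 0.39 and -0.67 to 0.78 on the log2 scale.

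The 5 rows with too few reads to test were SNHG18 with 8 reads over all 6 libraries, SNHG22 with 17, SNHG25 with 6, SNHG27 with 3 and the second SNHG28 identifier with 0. SNHG18 had no read in shSATB1 and 3, 5 and 0 reads in shCtrl 1, 2 and 3. SNHG22 had 0, 0 and 2 reads in shSATB1 against 3, 5 and 7 in shCtrl. No library held 10 reads of any of them.

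**Figure D3:**
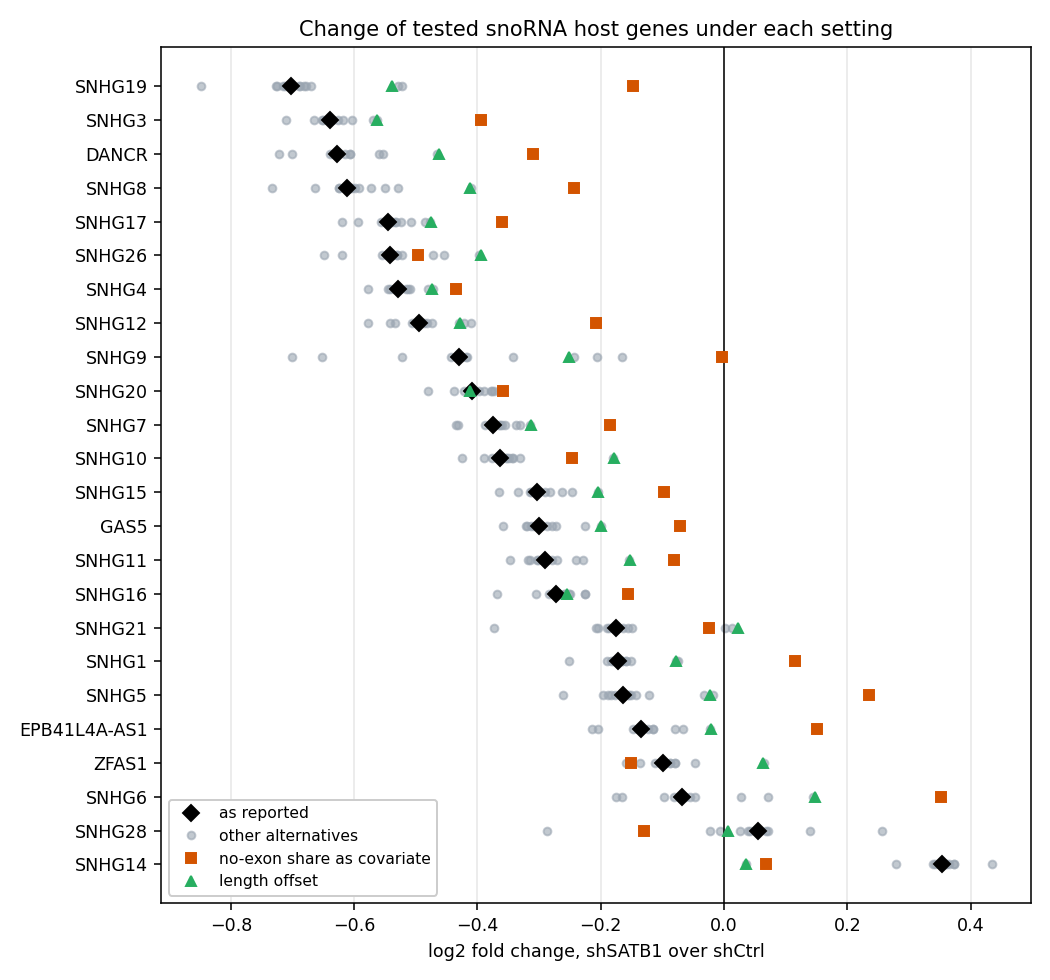
Log2 fold change of each tested host gene as reported (diamonds) and under the alternatives, with the covariate as squares, the length offset as triangles and the others as grey points. The squares of SNHG19, SNHG8 and GAS5 lie nearer to 0 than their diamonds, and both the square and the triangle of SNHG14 lie near 0.

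Levels between genes were compared as RPKM, which are CPM divided by the merged exon length in kilobases. GAS5 was highest, with 43 ± 1.45 RPKM in shSATB1 and 52.9 ± 4.63 RPKM in shCtrl. In shSATB1 it was followed by SNHG5 at 34.4 ± 1.79, SNHG1 at 31.1 ± 0.504, SNHG6 at 30.8 ± 4.12, SNHG15 at 29.6 ± 1.51, SNHG8 at 25.7 ± 2.09 and DANCR at 22.7 ± 2.61 RPKM. By the range of mean ± SD, SNHG1, SNHG6 and SNHG15 overlapped each other, as did SNHG8 and DANCR. SNHG5 lay above SNHG1 and SNHG15 above SNHG8, but the wide range of SNHG6 overlapped those of both SNHG5 and SNHG8. In shCtrl the same genes stood at 38.6 ± 5.92 for SNHG5, 35 ± 3.95 for SNHG1, 32.3 ± 5.32 for SNHG6, 36.5 ± 2.74 for SNHG15, 39.3 ± 5.7 for SNHG8 and 35 ± 3.33 RPKM for DANCR, with overlapping ranges. SNHG8 was rank 6 in shSATB1 and rank 2 in shCtrl. Merged exons hold every annotated isoform, so these values understate genes whose usual transcript is short. As CPM, the median level of a tested member was 29.8 in shSATB1 and 38.3 in shCtrl, against 16.1 and 16.2 over all tested genes.

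The host genes differ in the class of their guests, and this grouping was made after the values were seen, so it is a description. Over all tested genes 16.6% fell and 14.3% rose, and the classes hold few members. Of the 10 tested members with box H/ACA guests alone in GENCODE 29, 8 fell (80%) and 0 rose (0 also at an unadjusted p under 0.05 in edgeR, DESeq2 and limma-voom). Their median log2 fold change was -0.48. Of the 8 with box C/D guests alone, 3 fell (SNHG19, SNHG26 and SNHG16) and 1 rose (SNHG14), with a median of -0.17. Of the 3 with a scaRNA alone, 2 fell, with a median of -0.36. GENCODE 29 names no guest in GAS5, in which RefSeq places 10 SNORD genes and 1 SNORA gene. Box H/ACA and box C/D hosts did not stand in that order among protein-coding hosts with a guest outside all their annotated exons. There, 18 of 51 with box H/ACA guests alone fell (35.3%, median -0.08) and 14 of 32 with box C/D guests alone fell (43.8%, median -0.19).

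The guests themselves were hardly covered. GENCODE 29 places 137 snoRNA or scaRNA genes inside a member on the same strand, 84 of them in SNHG14. Of these, 97 had no read in any library and 9 had enough reads to be tested. SNORA73B, printed above, was the guest that passed the test, with 43, 57 and 51 reads in shSATB1 against 83, 66 and 77 in shCtrl. Its log2 fold change was -0.62 (SE 0.192, adjusted p = 0.0245), beside -0.64 for its host SNHG3. The 3 tested SNORA71 copies of SNHG17 had log2 fold changes of -0.50 for SNORA71A, -0.25 for SNORA71B and -0.38 for SNORA71C, with adjusted p of 0.2, 0.54 and 0.304, and SNORA60 in SNHG11 had -0.41 (adjusted p = 0.365).

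SNORD104, which lies in SNHG25, had 7, 12 and 11 reads in shSATB1 against 14, 24 and 17 in shCtrl (log2 fold change -0.91, adjusted p = 0.0861). SNORD116-1 and SNORD116-24 in SNHG14 had log2 fold changes of 0.84 (adjusted p = 0.199) and 1.03 (adjusted p = 0.132), and SNORD12B in ZFAS1 had 0.41 (adjusted p = 0.403). Of the 137 guests, 44 share bases with annotated exons of their host, where reads count as ambiguous. Reads on a guest row do not measure the mature snoRNA, since reads of the unspliced host are counted there as well.

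Protein-coding genes that hold a snoRNA in an intron are the other large class of hosts. Of 228 with a snoRNA gene outside all their annotated exons, which include the tested SNHG28 row, 183 were tested. Many of the 228 hold only guests without the name of a box C/D, box H/ACA or scaRNA gene. AC124312.1, MATR3, RCC1 and SEC14L1 among them share exon bases with a member, so this list is not independent of the members. Of these, 57 fell (31.1%, against 16.6% of all tested genes) and 33 rose (18%, against 14.3%). Their median log2 fold change was -0.04. HSPA8, the constitutive cytosolic HSP70 chaperone and host of several box C/D snoRNAs, averaged 1583.1 ± 45.9 CPM in shSATB1 and 2551.3 ± 189 CPM in shCtrl, with a log2 fold change of -0.69 (adjusted p = 1.11e-05). Among hosts that reached 2 CPM in either group, the next largest falls were C19orf48 at -0.63, SOD1, a superoxide dismutase, at -0.60, and ATP5F1B, a subunit of the mitochondrial ATP synthase, at -0.58. The largest rises were RHEX at 1.47, SVOPL at 1.26, N4BP2 at 0.77 and MCF2, a guanine nucleotide exchange factor, at 0.72. The guests of SOD1, RHEX, SVOPL, N4BP2 and MCF2 carry no name of a box C/D, box H/ACA or scaRNA gene. RHEX averaged 5.5 ± 0.313 CPM in shSATB1 and 1.99 ± 0.296 CPM in shCtrl (adjusted p = 2.62e-05). The 12 ribosomal protein genes among these hosts were all tested, and 10 fell (83.3%) and 0 rose, with a median of -0.39. At an unadjusted p under 0.05 likewise 0 of them rose in edgeR, DESeq2 or limma-voom. Of the other 171 tested hosts, 47 fell (27.5%) and 33 rose (19.3%), with a median of -0.02. Without shSATB1 1, and likewise without shSATB1 3, 37 protein-coding hosts fell, and the rises numbered 17 without shSATB1 1 and 18 without shSATB1 3 or shCtrl 3. Hosts whose snoRNA genes all share bases with their annotated exons, such as RPL4, NOP56 and DKC1, are not in these counts. With them, 84 of 226 tested hosts fell (37.2%) and 35 rose (15.5%), with a median of -0.10.

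**Figure D4:**
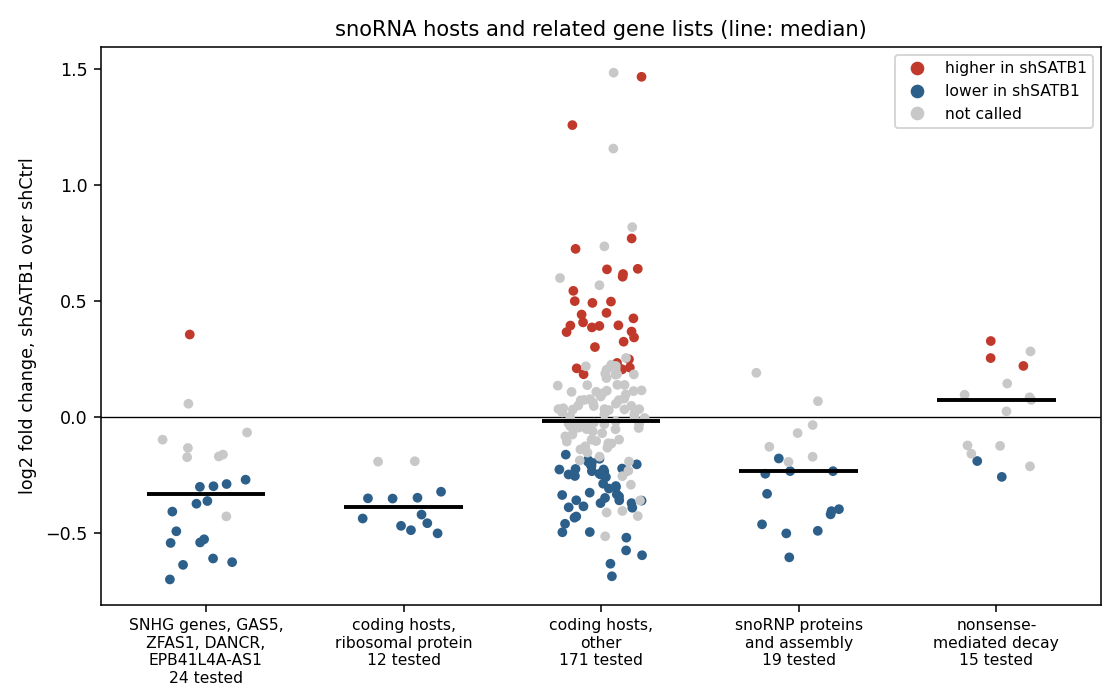
Log2 fold change of shSATB1 over shCtrl for each tested gene of the host lists and of the snoRNP and nonsense-mediated decay lists, a point per gene with the median as a line. The medians are -0.33 for the SNHG group, -0.39 for ribosomal protein hosts, -0.02 for the other protein-coding hosts, -0.24 for snoRNP genes and 0.07 for decay genes.

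Of 19 genes for proteins that bind and assemble snoRNAs, all tested, 12 fell (63.2%, against 16.6% of all tested genes), 0 rose and 7 were not called, with a median log2 fold change of -0.24. The 7 were NOP10, ZNHIT3, PIH1D1, NUFIP1, NAF1, ZNHIT6 and COIL, with log2 fold changes between -0.20 for NOP10 and 0.19 for COIL. COIL, the scaffold protein of Cajal bodies, was the 1 gene higher at an unadjusted p under 0.05, in edgeR, DESeq2 and limma-voom alike, and it passed the test with the filter of 1 CPM in 3 libraries and with the length offset. RUVBL2, an ATPase of the assembly machinery, averaged 198 ± 8.17 CPM in shSATB1 and 301 ± 28.5 CPM in shCtrl, with a log2 fold change of -0.61 (adjusted p = 5.32e-05). DKC1, the pseudouridine synthase of box H/ACA particles, averaged 165 ± 6.39 CPM in shSATB1 and 234 ± 15.1 CPM in shCtrl, with a log2 fold change of -0.50 (adjusted p = 9.54e-05). FBL, the methyltransferase of box C/D particles, averaged 199 ± 10.9 CPM in shSATB1 and 280.4 ± 18.2 CPM in shCtrl (-0.49, adjusted p = 0.000155). SNU13, which binds the kink-turn of box C/D RNAs, averaged 125 ± 3.15 CPM in shSATB1 and 172 ± 13.6 CPM in shCtrl (-0.46, adjusted p = 0.000215). NOP58, a core box C/D protein that is itself a protein-coding host, had a log2 fold change of -0.25 (adjusted p = 0.0179). Fitted with the share of reads in no exon as a covariate, 4 genes of this list fell, and 4 fell when tested for a change beyond 1.2-fold.

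Genes of nonsense-mediated decay, the pathway that degrades the spliced RNA of several hosts, were called at shares near those of all genes. Of 15 tested genes, 2 fell (13.3%, against 16.6% of all tested genes), 3 rose (20%, against 14.3%) and 10 were not called, with a median log2 fold change of 0.07. UPF3B, UPF3A and CASC3, of the UPF3 and exon junction proteins, rose by 0.33 (adjusted p = 0.00409), 0.25 (adjusted p = 0.00615) and 0.22 (adjusted p = 0.0171) on the log2 scale. EIF4A3, the helicase of the exon junction complex, and SMG5, a decay adaptor, had log2 fold changes of -0.26 (adjusted p = 0.00649) and -0.19 (adjusted p = 0.0266). UPF1, the central helicase of the pathway, averaged 251 ± 5.8 CPM in shSATB1 and 247 ± 9.12 CPM in shCtrl (adjusted p = 0.804). The falls numbered 4 without shCtrl 1, 1 without shCtrl 3 or shSATB1 3, and 0 without shSATB1 1 (2 at an unadjusted p under 0.05 in edgeR), and the rises numbered 5 without shCtrl 1. When tested with edgeR for a change beyond 1.2-fold, 0 fell and 0 rose, also at an unadjusted p under 0.05.

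Several hosts start close to another gene on the opposite strand. Of 9 such head-to-head partners within 1 kb, 8 were tested, and 3 fell and 2 rose, where 16.6% and 14.3% of all tested genes did. These are counts of a few genes. TRAF7, which starts 340 bases from SNHG19 and encodes a ubiquitin ligase, averaged 111 ± 5.33 CPM in shSATB1 and 142 ± 3.15 CPM in shCtrl, with a log2 fold change of -0.36 (adjusted p = 0.000698), beside -0.70 for SNHG19. SLC3A2, the heavy chain of amino acid transporters, starts 188 bases from SNHG1 and had a log2 fold change of -0.40 (adjusted p = 0.000308), beside -0.17 for SNHG1, which did not pass the test. RPS2, a protein of the small ribosomal subunit, starts 99 bases from SNHG9 and had -0.47 (adjusted p = 0.000768). ZBTB37 starts 800 bases from GAS5 and averaged 64.6 ± 2.57 CPM in shSATB1 and 47.4 ± 11 CPM in shCtrl, a rise of 0.45 on the log2 scale (adjusted p = 0.0134), beside the fall of GAS5. The other partner that rose was AL590560.1, which starts near the SNHG28 identifier with no read, with a log2 fold change of 0.87 (adjusted p = 0.00386). Without shSATB1 1, and likewise without shSATB1 3, 1 partner rose. With the share of reads in no exon as a covariate 2 fell and 0 rose (0 also at an unadjusted p under 0.05 in edgeR), with log2 fold changes of -0.14 for ZBTB37 (adjusted p = 0.417), whose sign turned, 0.58 for AL590560.1 (adjusted p = 0.377) and -0.16 for RPS2 (adjusted p = 0.12). When tested for a change beyond 1.2-fold, RPS2 fell and AL590560.1 rose, and TRAF7, SLC3A2 and ZBTB37 did not pass.

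Genes whose exons overlap those of a host were also set beside it. Of 24 such genes, 15 were tested, and 3 fell (20%, against 16.6% of all tested genes) and 4 rose (26.7%, against 14.3%), AL590560.1 among them. RCC1, the exchange factor for the GTPase Ran, shares 242 exon bases with SNHG3 on the same strand and averaged 147 ± 8.43 CPM in shSATB1 and 203 ± 5.92 CPM in shCtrl, with a log2 fold change of -0.46 (adjusted p = 0.000145). GLRX5, a mitochondrial glutaredoxin, overlaps 20.1% of the exon bases of SNHG10 on the opposite strand and had -0.68 (adjusted p = 7.11e-05), beside -0.36 for SNHG10. TRNAU1AP shares 8 bases with SNHG12 and had -0.27 (adjusted p = 0.0275). SEC14L1 shares 460 bases with SNHG20 on the same strand and had 0.36 (adjusted p = 0.00407), against -0.41 for SNHG20. UBE3A, the ubiquitin ligase gene opposite SNHG14, averaged 214 ± 13.3 CPM in shSATB1 and 184 ± 7.21 CPM in shCtrl, with a log2 fold change of 0.22 (adjusted p = 0.0218), and SNRPN, which shares 141 bases with SNHG14, had 0.75 (adjusted p = 0.0251). In the fit with the share of reads in no exon as a covariate RCC1, GLRX5 and SNRPN passed the test, while UBE3A (0.07, adjusted p = 0.653), SEC14L1 (0.12, adjusted p = 0.495) and TRNAU1AP (0.01, adjusted p = 0.962), whose sign turned, did not. Beyond 1.2-fold, RCC1, GLRX5 and AL590560.1 passed. Reads of overlapping genes cannot be told apart where strand was not used, so the values of SNHG10 and GLRX5 are uncertain in their shared stretch.

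**Figure D5:**
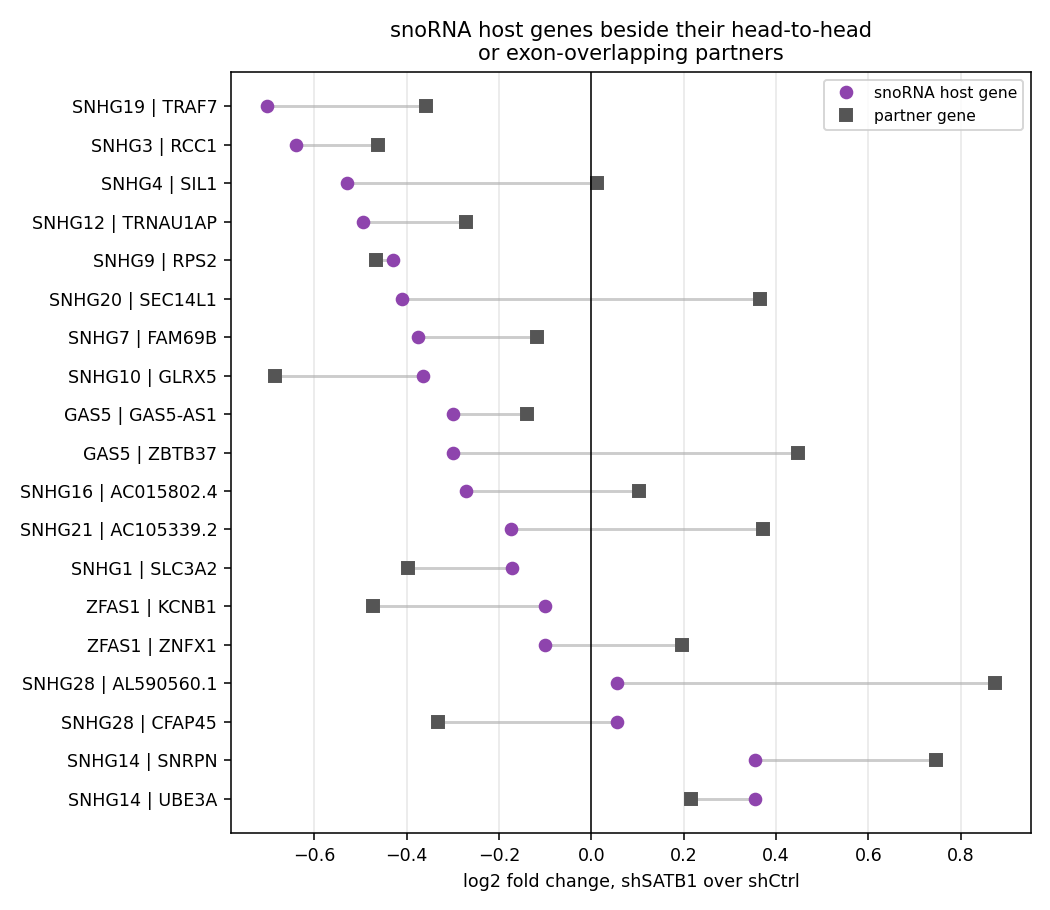
Log2 fold change of each tested host gene and of its tested head-to-head or exon-overlapping partner, side by side, host first. SNHG19 and TRAF7, SNHG3 and RCC1, and SNHG10 and GLRX5 are lower in shSATB1 in both genes, while GAS5 and ZBTB37, and SNHG20 and SEC14L1, have opposite signs (for ZBTB37 the sign turns with the share of reads in no exon as a covariate).

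Promoter sequence was available in RefSeq (GRCh38.p14) for 24 members, as 250 bases before and 50 after the annotated start. A pyrimidine tract was searched as a run of 8 or more C or T that begins with C within 20 bases of the start, on the sense strand. It was found in 5 of 24 member promoters (20.8%), in 15.4% of 27305 promoters and in 72.9% of 70 ribosomal protein promoters. The members were SNHG4, SNHG7, SNHG12 and SNHG26, which all fell, and SNHG18, which had too few reads. These were 4 of the 14 members with a promoter that fell (28.6%), and 4 of the 21 that were tested (19.0%). SNHG3, DANCR, SNHG8, SNHG17, SNHG19, GAS5, SNHG10, SNHG11, SNHG16 and SNHG20 fell without a tract, and 0 of 6 members not called held one. A link between tract and fall was not tested. The hexamer CACGTG, searched on both strands over the whole promoter, was in 1 member (SNHG7, 4.17%) and in 7.43% of all promoters. A match describes letters in a window and is no measured start or binding site. In 5 of the 24 members (SNHG12, SNHG14, SNHG20, SNHG27 and SNHG28) the RefSeq start lies more than 1000 bases from the GENCODE 29 gene start. In others, such as GAS5 (-163 bases), ZFAS1 (464), SNHG11 (76) and SNHG8 (53), the offset is smaller but still exceeds the 20 bases searched. A tract at the other annotated start would be missed there.

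The 4 promoters with a tract in a host that fell are printed as examples of the match, which most hosts that fell lack. Its share in member promoters (20.8%) was near that of all promoters (15.4%) and far from that of ribosomal protein promoters (72.9%). Relative to the RefSeq start, the tract begins at base -14 in SNHG7, and the longer tract of SNHG26 at base 10. Each line gives 60 bases before and 40 from the RefSeq start, 5′ to 3′ on the strand of the gene (GRCh38.p14), with each such tract in capitals (2 in SNHG26, 1 in the others), for SNHG4 (chr5:139274041-139274140, plus strand), SNHG12 (chr1:28581834-28581933, minus strand), SNHG26 (chr7:22854180-22854279, plus strand) and SNHG7 (chr9:136728145-136728244, minus strand).
SNHG4: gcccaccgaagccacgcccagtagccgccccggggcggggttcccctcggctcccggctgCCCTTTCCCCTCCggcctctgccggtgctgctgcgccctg
SNHG12: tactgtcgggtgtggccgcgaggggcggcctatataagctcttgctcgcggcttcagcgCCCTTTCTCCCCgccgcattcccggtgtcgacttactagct
SNHG26: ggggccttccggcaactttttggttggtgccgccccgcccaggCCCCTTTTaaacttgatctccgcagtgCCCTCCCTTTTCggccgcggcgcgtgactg
SNHG7: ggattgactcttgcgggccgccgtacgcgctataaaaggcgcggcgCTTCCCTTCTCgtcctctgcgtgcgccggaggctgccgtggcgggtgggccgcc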

How the data were processed

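Gene expression was measured by RNA-seq of total RNA from Jurkat cells, 3 libraries with shSATB1 and 3 with shCtrl, grouped by sample title. The authors deposited 1 file of raw read counts per library, with Ensembl gene identifiers. The tools Trim Galore, STAR and HTSeq, with hg38 as the build, come from the submitters' processing notes (no versions there). Which annotation release, strand setting and RNA selection were used is not given in the sources used here. The files list ambiguous reads apart from genes, so hosts with shared exons can be undercounted. Ambiguous reads made up 9.11% ± 0.18 of reads in shSATB1 and 9.84% ± 0.301 in shCtrl (SD, n = 3 each). The 5 lines per file that name no gene stayed out of library sizes and tests.

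Of 58735 rows, the 17520 that passed edgeR's filterByExpr (minimum count 10) were fitted together with edgeR 4.0.16 (R 4.3.3) after TMM normalization, using its quasi-likelihood F test with no covariate. Benjamini-Hochberg adjustment ran over all of them, with calls at 0.05. The biological coefficient of variation was 7.27%. Means are given with the SD over 3 libraries, and intervals of log2 fold changes are 95% intervals from the fitted SE. Symbols, hosts, guests and partners came from GENCODE 29 by coordinates, promoters from RefSeq. The test was checked on simulated counts. Alternatives were upper quartile normalization, DESeq2 size factors, no filter, 1 CPM in 3 libraries, DESeq2 1.42.0, limma-voom (limma 3.58.1), a replicate block, the share of reads in no exon as a covariate, a length offset (lowess, span 0.3), that offset with the block, a 1.2-fold null hypothesis and leaving out each library. Counting guests in exons too was added after seeing the data. Every tested member and guest is named, with called partners, the 4 largest called changes of the snoRNP and decay lists and the 4 largest of the protein-coding hosts in each direction at 2 CPM or more. UPF1, SMG5, NOP58 and the snoRNP genes that were not called were named after their values were seen. Members and lists were chosen with earlier results of these data known.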

Additional observations from a re-analysis of the deposited data

How the results depend on the processing

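SATB1 kept its call in all 17 alternatives. The 15 falls among host genes were 15 with upper quartile normalization, DESeq2 size factors, no filter, 1 CPM in 3 libraries, DESeq2, limma-voom and the replicate block, 12 with the length offset with or without the block, and between 12 and 17 with 1 library left out. With the share of reads in no exon as a covariate, 4 host genes fell and 0 rose (SNHG5 and SNHG6 were the 2 higher at an unadjusted p under 0.05 in edgeR), 1262 of all genes fell and 858 rose, 28 protein-coding hosts fell and 13 rose, and the median of the host genes was -0.15. This share differed between the groups without overlap, so the share and the hairpin cannot be told apart. Against the 1.2-fold null hypothesis 6 host genes fell and 0 rose (1 at an unadjusted p under 0.05), 698 of all genes fell and 758 rose, and 11 protein-coding hosts fell and 10 rose, a stricter question by construction. The length offset left 0 host genes that rose, also with the replicate block and at an unadjusted p under 0.05. Leaving out 1 library gave between 1897 and 3565 falls and between 1591 and 3195 rises over all genes, and between 37 and 60 falls and between 17 and 47 rises among protein-coding hosts, and the lowest counts were without shSATB1 1. Counting guests in exons too gave 84 falls and 35 rises among 226 tested protein-coding hosts.

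Signs turned in members that had not passed the test, and the cause was not tested. With the covariate the log2 fold change was 0.11 for SNHG1, 0.24 for SNHG5, 0.15 for EPB41L4A-AS1, 0.35 for SNHG6 and -0.13 for SNHG28. With the length offset it was 0.0225 for SNHG21, 0.0630 for ZFAS1 and 0.15 for SNHG6, and with the offset and the replicate block 0.0137 for SNHG21, 0.0654 for ZFAS1, 0.14 for SNHG6 and -0.0228 for SNHG28, which had -0.0065 with limma-voom. With 1 library left out SNHG21 ranged between -0.37 and 0.0023, SNHG6 between -0.18 and 0.0707 and SNHG28 between -0.29 and 0.26.

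Whether the shared replicate numbers pair the samples is not settled. Same-numbered libraries deviated with correlations of 0.0735, 0.0678 and 0.00325, and differently numbered ones with correlations between -0.080 and 0.016. The replicate block left 15 falls and the rise of SNHG14 among host genes. Over all genes it gave 3120 falls and 2783 rises, against 2910 and 2500 without it. Depth limits SNHG9, SNHG21, SNHG28 and the guests, and 5 rows could not be tested.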
